A study of Arabidopsis thaliana with 36 samples.

Results

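The 80 genes described here are Arabidopsis genes whose level was higher in warm than in cool roots of all 3 genotypes, while their level in shoots stayed within a narrow band. Levels are in CPM, a gene's reads per 1000000 reads counted in genes of the library. The difference L between temperatures is log2 of the mean CPM at 27 °C plus 1 over the mean CPM at 21 °C plus 1, and was taken for each genotype and organ. Of 32833 genes in the count tables, 14337 had a mean of at least 3 CPM over the 18 root and over the 18 shoot libraries, and 7101 of these had all 3 shoot L between -0.3 and 0.3. These 7101 genes were ranked by the lowest of their 3 root L, and the first 80 were taken, so the members were chosen by the measured temperature differences themselves. The values of L are therefore given as a description, without tests. All 80 passed the CPM minimum, since it was part of the choice. The rule also names the sugar exporters SWEET11 and SWEET12 and the regulator WRKY70 for removal, but none of the 3 was among the 80, since each has a shoot L outside the band.

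Seedlings had 3 genotypes, the accession Col-0 and the mutants hy5 and phyAB, and their roots and shoots were collected separately 6 days after germination. They were grown with 16 h of light and 8 h of dark, at 21 °C by day and 15 °C by night or at 27 °C by day and 21 °C by night. The time spent in the warmth is given as 4 h in one place and as 3 days in another, and alleles of the mutants were not given in the sources used here. Each of the 12 groups has 3 replicates, and nothing says that these were separate cultures, so p-values measure the spread between 36 libraries that may in part be technical.

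Seedlings grown in moderate warmth elongate, and phytochrome B is known as a receptor of both light and temperature. HY5 is a bZIP factor that acts downstream of the photoreceptors, promotes greening and is found in both shoot and root. Roots live on sugars delivered from the shoot, keep mostly non-green plastids, and hold their own circadian clock. In whole organs, fewer cells of a type and less RNA per cell cannot be told apart.

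Library depth was 14810514 to 24006279 counted reads in roots and 17008543 to 23880472 in shoots. In cool roots the HY5 transcript averaged 47.3 ± 4.81 CPM (SD, n = 3) in Col-0 and 11.9 ± 0.780 CPM in hy5. In phyAB roots at 21 °C, PHYA was at 16.6 ± 2.39 CPM against 135 ± 2.71 in Col-0, and PHYB at 41.2 ± 2.45 against 113 ± 4.59. In shoots at 21 °C PHYA stood at 20.3 ± 2.17 CPM in phyAB and 69.8 ± 6.13 in Col-0, but HY5 and PHYB do not check the labels there. HY5 was at 7.32 ± 0.478 CPM in hy5 and 7.53 ± 2.14 CPM in Col-0 shoots, and PHYB at 66.3 ± 1.46 CPM in phyAB and 77.0 ± 9.01 CPM in Col-0 shoots. A list of 21 root markers summed to 7872 to 14236 CPM in roots and to 1724 to 3774 CPM in shoots. The phyAB root libraries numbered 3 carry a source name that says shoot, and their title and tissue say root; they were used as root. Seed storage and oil body transcripts of 10 genes summed to 212 to 2410 CPM in the 6 phyAB shoot libraries, to 0.877 to 6.85 CPM in the other 12 shoot libraries, and to at most 0.885 CPM in roots. Since all 6 phyAB shoot libraries carry them, no phyAB shoot value could be had without them. The 3 shoot libraries numbered 3 at 27 °C had 27.8% to 34.6% of reads aligned at more than 1 place, against 8.29% to 16.5% in the other 15.

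All 80 members are protein-coding, and they lie on all 5 chromosomes, with 13 to 21 on each. Their promoters, from 250 bases before to 50 bases after the annotated gene start, were read from the RefSeq TAIR10.1 genome and searched on both strands for 12 short motifs. The evening element AAATATCT, known from genes of the clock, was in 13 promoters (16.25%), against 5.82% of the 14232 promoters of genes over the CPM minimum, members included. The element TATCCA, known from sugar-regulated amylase genes of rice, was in 23 promoters (28.75%), against 16.5%. The G-box CACGTG, a sequence that HY5 and the PIF factors can bind, was in 10 promoters (12.5%), against 9.19%, and the heat shock element GAANNTTC in 9 (11.25%), against 10.9%. The auxin response element TGTCTC was in 5 (6.25%), against 13.2%. These shares are descriptions without a test, and a match does not show that a factor binds there. The promoters of 4 members are printed as examples of those that hold the evening element, the G-box or both. Other members hold them too, such as GSTL3 with both, and are not printed. Every match to the G-box, the evening element and TATCCA on either strand is in capitals. In the glucan phosphorylase gene AT3G29320, a match to TATCCA overlaps a G-box.
TOC1, chr5:24674713-24675012, plus strand: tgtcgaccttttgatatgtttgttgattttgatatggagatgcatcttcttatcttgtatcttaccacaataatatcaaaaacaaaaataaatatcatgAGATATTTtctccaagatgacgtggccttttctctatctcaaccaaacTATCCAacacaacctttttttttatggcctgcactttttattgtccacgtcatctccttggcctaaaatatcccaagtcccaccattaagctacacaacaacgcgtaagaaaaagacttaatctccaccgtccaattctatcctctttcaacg
PRR7, chr5:641981-642280, minus strand: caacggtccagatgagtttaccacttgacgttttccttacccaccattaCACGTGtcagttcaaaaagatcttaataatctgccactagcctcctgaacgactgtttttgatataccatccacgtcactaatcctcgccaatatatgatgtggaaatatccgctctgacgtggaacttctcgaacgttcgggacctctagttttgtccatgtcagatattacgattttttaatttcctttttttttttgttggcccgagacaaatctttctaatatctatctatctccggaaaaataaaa
AT3G29320, chr3:11252557-11252856, plus strand: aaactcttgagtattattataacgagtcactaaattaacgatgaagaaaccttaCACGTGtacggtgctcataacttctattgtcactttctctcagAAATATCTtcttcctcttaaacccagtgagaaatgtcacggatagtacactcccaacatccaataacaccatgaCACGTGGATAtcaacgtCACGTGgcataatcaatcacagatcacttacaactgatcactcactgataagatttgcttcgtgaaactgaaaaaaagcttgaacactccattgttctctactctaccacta
AT5G61590, chr5:24765462-24765761, minus strand: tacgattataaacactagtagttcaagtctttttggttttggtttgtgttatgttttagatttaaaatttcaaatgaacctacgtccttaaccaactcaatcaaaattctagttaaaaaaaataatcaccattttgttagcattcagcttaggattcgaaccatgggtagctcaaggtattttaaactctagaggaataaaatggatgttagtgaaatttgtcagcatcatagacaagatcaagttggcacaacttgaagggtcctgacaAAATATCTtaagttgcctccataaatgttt

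TOC1 and PRR7 encode pseudo-response regulators of the circadian clock, AT3G29320 encodes a glucan phosphorylase of family 35, and AT5G61590 an AP2/ERF factor. The evening element of AT5G61590 starts 20 bases after the annotated start, and that of TOC1 lies 151 bases before it. No match to the evening element as written was found in the PRR7 window.

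**Figure D1:**
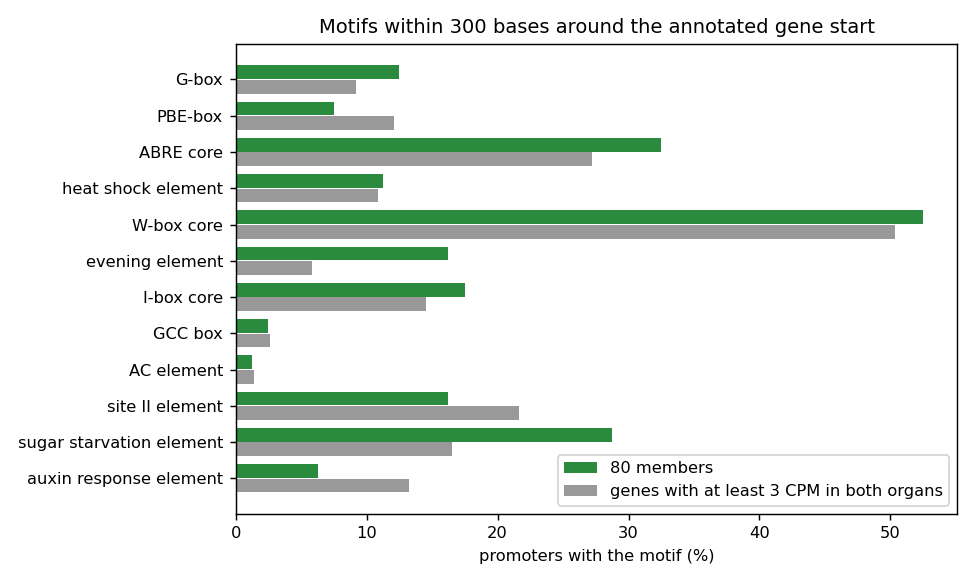
Share of promoters with each of 12 motifs, in percent, for the 80 members (green) and for genes with at least 3 CPM in both organs (grey). The evening element is in 16.25% of member promoters and 5.82% of promoters of all genes over the minimum, members included, and the sugar starvation element (TATCCA) in 28.75% and 16.5%.

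Root L had a median of 0.74, 0.90 and 0.72 for the genotypes Col-0, hy5 and phyAB, against 0.07, 0.08 and 0.05 over the 14337 genes over the minimum. L was highest in hy5 for 57 members, in Col-0 for 15 and in phyAB for 8. It reached 1, a doubling, for 20 members in Col-0 roots, 30 in hy5 roots and 10 in phyAB roots. Of the 14337 genes 302, 400 and 146 reached 1 in these roots, so the order of the genotypes was the same over all these genes. Shoot L had medians of 0.06, 0.10 and 0.10. All 3 warm Col-0 roots lay above all 3 cool ones for 80 of 80 members (38.7% of the 14337 genes), in hy5 for 78 (40.5%) and in phyAB for 79 (31.1%). The exceptions were CAB1 in hy5 and phyAB roots and CSLB03 in hy5 roots.

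Shoot levels were inside the band by choice but were not always equal. All 3 warm shoots lay above all 3 cool shoots for 17 members in Col-0 (28.1% of the 14337 genes), 26 in hy5 (32.1%) and 23 in phyAB (26.9%). They lay below for 5, 2 and 5 members (30%, 27.7% and 30.8%). A member can thus differ in shoots as well, by at most 0.3 in L.

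The choice ends without a gap. The last members are AT4G31530, AT3G61420 and TCP14, with a lowest root L of 0.548, 0.546 and 0.546. The first genes outside are AT1G72890, AT2G42247 and NPQ1, with 0.546, 0.541 and 0.538.

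**Figure D2:**
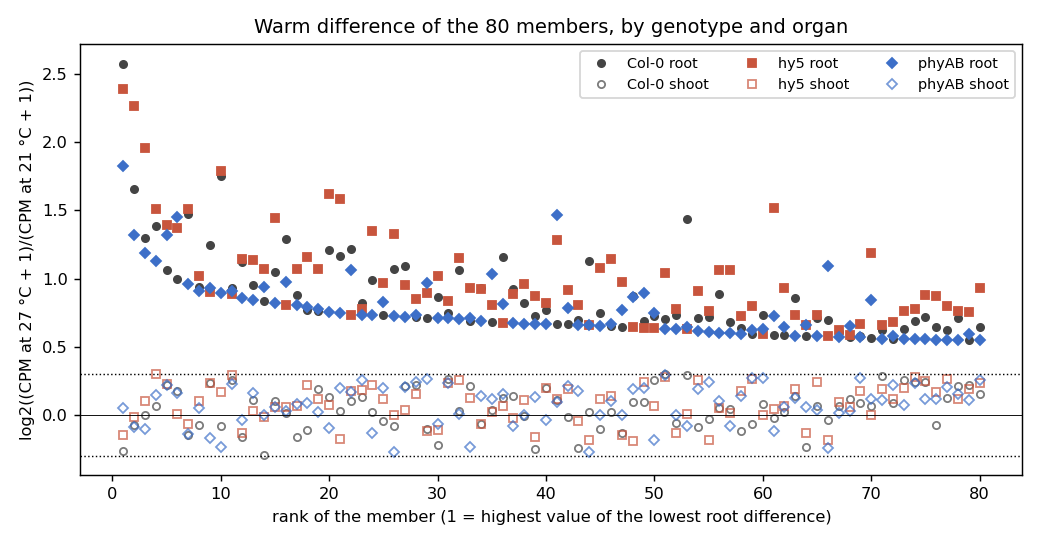
L, the log2 ratio of mean CPM plus 1 at 27 °C over 21 °C, for the 80 members in order of rank; filled marks are roots, open marks shoots, and dotted lines mark the shoot band of -0.3 to 0.3. Root values run from 0.55 to 2.58, and hy5 roots are the highest of the 3 genotypes for 57 members.

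Members were sorted into 7 groups by what their products are known or annotated to do, after their values were known. They are 10 genes of the chloroplast and photosynthesis, 12 of transport, 9 of defence or secreted proteins, 9 of transcription factors and clock, 8 of protein folding and turnover, 20 metabolic enzymes and 12 others. Median root L ran from 0.69 to 1.16 over these groups in Col-0, from 0.79 to 1.36 in hy5 and from 0.63 to 0.89 in phyAB. It was highest for defence genes in Col-0 and phyAB and for chloroplast genes in hy5.

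Transporters included carriers of sugars, amino acids and metals. ESL1 moves sugars across the vacuole membrane. Col-0 roots held ESL1 at 38.3, 36.2 and 39.3 CPM at 21 °C and 86.6, 68.8 and 65.3 CPM at 27 °C. The hy5 roots held 29.5, 25.9 and 23.8 CPM in the cool and 57.5, 57.7 and 48.8 CPM in the warm libraries. The phyAB values were 25.2, 34.5 and 27.4 CPM at 21 °C and 50.7, 58.8 and 56.1 CPM at 27 °C. In the 18 shoot libraries ESL1 ranged from 8.70 to 17.5 CPM. Every warm root stood above every cool root of its genotype, and shoots stood below all roots.

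STP4 is a monosaccharide-proton symporter of the plasma membrane, known from sink tissues. Cool Col-0 roots had 73.4, 79.4 and 102 CPM of STP4, and warm ones 155, 147 and 167 CPM. For hy5 roots these values were 77.4, 78.3 and 62.7 CPM and 141, 152 and 151 CPM. For phyAB roots they were 90.1, 116 and 96.2 CPM and 163, 165 and 169 CPM. The shoot range of STP4 was 41.9 to 77.7 CPM. The warm roots lay above all cool roots in each genotype.

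STP7 belongs to the same symporter family and carries sugars of the cell wall. The 3 Col-0 root libraries at 21 °C gave 47.0, 43.4 and 51.5 CPM for STP7 and the 3 at 27 °C 82.8, 82.9 and 86.9 CPM. In hy5 the roots gave 45.7, 43.6 and 32.5 CPM and 79.7, 83.9 and 76.5 CPM at these temperatures. In phyAB the roots gave 57.4, 60.9 and 48.5 CPM and 92.8, 84.4 and 89.7 CPM. STP7 stood at 11.4 to 19.8 CPM in shoots, below all root libraries.

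ZIP5 is a member of the zinc and iron transporter family. Counts of ZIP5 came to 12.2, 8.54 and 12.3 CPM in cool Col-0 roots and to 23.5, 23.8 and 28.4 CPM in warm ones. Roots of hy5 stood at 5.83, 6.16 and 5.60 CPM and, when warm, at 14.7, 14.1 and 13.8 CPM. Roots of phyAB stood at 8.54, 8.69 and 8.51 CPM and, when warm, at 14.4, 17.2 and 17.5 CPM. The warm groups did not overlap the cool ones. ZIP5 stood at 3.04 to 7.98 CPM in shoots, where the range overlapped that of the cool roots.

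AAP2 is an amino acid permease of the phloem. Col-0 roots held AAP2 at 189.6, 208 and 219 CPM at 21 °C and 449, 408 and 434 CPM at 27 °C. The hy5 roots held 217, 258 and 205 CPM in the cool and 537, 470.3 and 503 CPM in the warm libraries. The phyAB values were 333, 303 and 274 CPM at 21 °C and 539.6, 497 and 449 CPM at 27 °C. Its shoot range was 29.0 to 53.9 CPM, so all roots lay above all shoots. The group also holds AT1G79520, a cation efflux protein, the sugar carrier relative SFP1, the amino acid exporter relative UMAMIT30, AT2G39210, the vacuolar exchanger MHX, the potassium channel KCO5 and the copper pump RAN1, which serves the ethylene receptors. Their root L ran from 0.56 to 1.16. Of the other 16 sugar transporter genes tested, in Col-0 roots 3 rose and 3 fell in the warmth, by the quasi-likelihood test of edgeR with p-values adjusted after Benjamini-Hochberg over 20355 genes, of which 21.7% rose and 21.8% fell. The phloem loader SUC2 rose to 21.2 ± 3.34 CPM, by a log2 fold change of 0.75 with an SE of 0.14 (adjusted p = 0.000361, edgeR). SWEET14 fell from 6.99 ± 1.08 to 2.24 ± 1.06 CPM (-1.71 ± 0.31, adjusted p = 0.000212). Of 17 genes known to rise when sugar is low, 12 rose in Col-0 roots, 13 in hy5 roots (25.7% of all genes rose and 23.9% fell) and 10 in phyAB roots (19.2% and 19.2%), where 1 fell. In Col-0 and hy5 roots 0 fell by edgeR, and 0 by DESeq2, with 1 and 0 lower at an unadjusted p under 0.05. Low-sugar genes rose in shoots too, 16 of 17 in Col-0 (22.5% of 20100 genes rose), 15 in hy5 (23.1%) and 15 in phyAB (21.3%), with median log2 fold changes of 1.89, 1.64 and 1.05 against 1.01, 1.53 and 0.68 in roots.

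Chloroplast members were low in roots. CP12-1 is a small regulator of Calvin cycle enzymes. Cool Col-0 roots had 16.3, 12.6 and 20.4 CPM of CP12-1, and warm ones 51.9, 52.2 and 57.8 CPM. For hy5 roots these values were 2.09, 2.96 and 1.72 CPM and 14.0, 17.1 and 12.8 CPM. For phyAB roots they were 12.1, 14.7 and 8.30 CPM and 28.2, 38.9 and 24.8 CPM. CP12-1 stood at 512 to 674 CPM in shoots. Warm hy5 roots reached only the level of cool Col-0 and phyAB roots, and shoots lay above all roots.

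RCA, rubisco activase, opens the active site of rubisco. The 3 Col-0 root libraries at 21 °C gave 58.1, 48.7 and 60.3 CPM for RCA and the 3 at 27 °C 169, 122 and 123 CPM. In hy5 the roots gave 8.82, 9.42 and 6.46 CPM and 40.7, 47.0 and 16.9 CPM at these temperatures. In phyAB the roots gave 34.8, 47.5 and 28.2 CPM and 72.9, 134 and 49.0 CPM. RCA stood at 11239 to 17089 CPM in shoots. The warm roots lay above the cool ones in each genotype, and the third warm library of hy5 and of phyAB was the lowest of its group.

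PSAD-1 is a subunit of photosystem I. Counts of PSAD-1 came to 22.2, 18.7 and 23.3 CPM in cool Col-0 roots and to 50.9, 40.6 and 46.2 CPM in warm ones. Roots of hy5 stood at 0.521, 0.534 and 0.369 CPM and, when warm, at 3.70, 4.05 and 0.844 CPM. Roots of phyAB stood at 3.14, 4.86 and 4.12 CPM and, when warm, at 7.82, 18.8 and 8.09 CPM. PSAD-1 stood at 2156 to 2990.3 CPM in shoots. Cool hy5 roots were near the floor, with values below 1 CPM in all 3 libraries, and their warm libraries lay below every Col-0 root.

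The other 7 are CRD1 and CHLM of chlorophyll synthesis, the signal recognition particle component CAO (AT2G47450), the triose phosphate translocator APE2, the light-harvesting protein CAB1, the ATP synthase subunit ATPC1 and the rubredoxin-like AT1G54500. CAB1 has near-identical copies, so its count is uncertain. Median root level as a share of shoot level for the 10 was 1.64%, 0.251% and 0.952% for Col-0, hy5 and phyAB at 21 °C, and 2.82%, 0.709% and 1.52% at 27 °C. For 30 other photosynthesis genes, used as shoot markers, the medians were 0.462%, 0.0521% and 0.210% at 21 °C and 0.825%, 0.110% and 0.313% at 27 °C. These 30 summed to 518 to 642 CPM in cool and 1130 to 1312 CPM in warm Col-0 roots, and to 98806 to 136717 CPM in shoots. In hy5 roots the sums were 84.7 to 103 and 173 to 277 CPM, and in phyAB roots 205 to 333 and 348 to 699 CPM. No marker was at 0 in all libraries of a root group. In the warmth 20 of 30 rose in Col-0 roots (21.7% of all genes), 16 in hy5 roots (25.7%) and 13 in phyAB roots (19.2%). By edgeR 0 fell in each, with 0 at an unadjusted p under 0.05 and 0 by DESeq2. The summed level of the 30 was thus higher in warm than in cool roots of each genotype and lower in mutant than in Col-0 roots. As a share of the shoot level, not every marker was lower in mutant roots. For GLK2 this share was 8.75% in Col-0 and 15.8% in hy5 at 21 °C, which depends on its shoot level too. In shoots 22, 22 and 21 of the 30 rose in Col-0, hy5 and phyAB, and 4, 5 and 3 fell. Of all genes tested in shoots 22.5%, 23.1% and 21.3% rose, and 23.2%, 22.5% and 22.1% fell. The part of the markers' difference in the members' values was not tested.

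**Figure D3:**
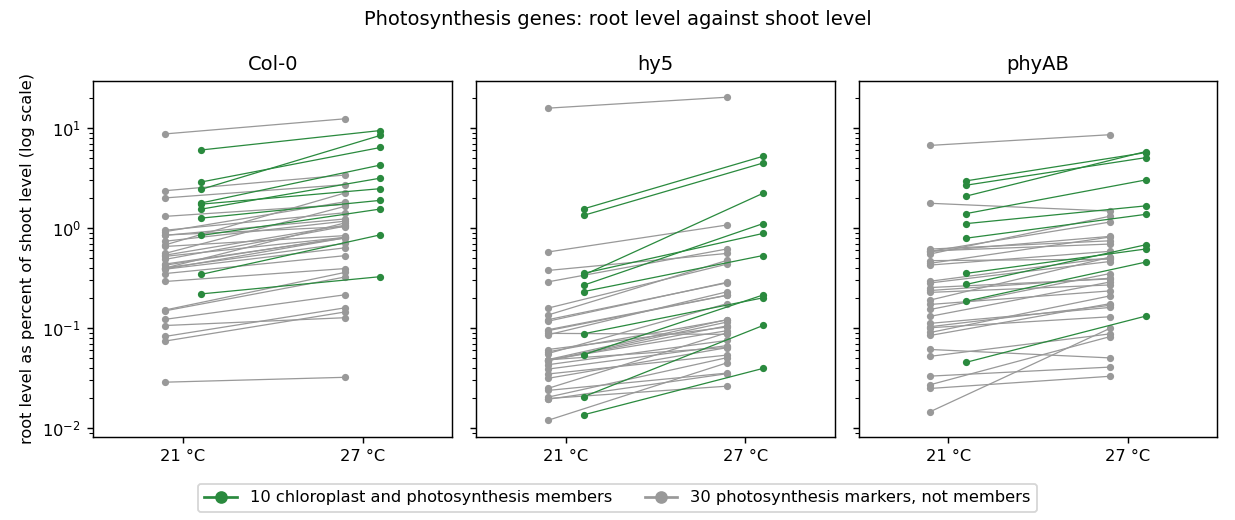
Root level as a percentage of shoot level (log axis) at 21 °C and 27 °C, for the 10 chloroplast members (green) and 30 other photosynthesis genes (grey), in each genotype; each line is 1 gene. The median of the members goes from 1.64% to 2.82% in Col-0, from 0.251% to 0.709% in hy5 and from 0.952% to 1.52% in phyAB.

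PR4 is a secreted chitin-binding protein of defence. Col-0 roots held PR4 at 73.4, 76.6 and 82.5 CPM at 21 °C and 219.9, 184 and 209 CPM at 27 °C. The hy5 roots held 64.4, 67.3 and 50.5 CPM in the cool and 161, 206 and 159 CPM in the warm libraries. The phyAB values were 62.8, 76.5 and 56.0 CPM at 21 °C and 141, 158 and 130.4 CPM at 27 °C. PR4 stood at 12.4 to 43.3 CPM in shoots. All roots lay above all shoots, and warm roots above cool ones.

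AT1G03220 encodes an aspartyl protease-like protein. Cool Col-0 roots had 441, 396 and 514 CPM of AT1G03220, and warm ones 1013, 1037 and 1159 CPM. For hy5 roots these values were 821, 665 and 508 CPM and 1183, 1323 and 1217 CPM. For phyAB roots they were 833, 757 and 669 CPM and 1341, 1525 and 1433 CPM. AT1G03220 stood at 58.4 to 165 CPM in shoots. Cool roots of both mutants reached higher than cool Col-0 roots, and warm roots lay above cool roots in each genotype.

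The other members of this group are the vacuolar processing protease GAMMA-VPE, the lipid transfer protein AT2G44290, AT5G44410 of the berberine bridge enzyme family, the carboxypeptidase AT5G22860, the peroxidase PRXCB, the thaumatin-like AT1G20030 and the glycine- and proline-rich AT5G17650. Their root L ran from 0.64 to 1.58. Of 21 salicylic acid and immunity genes tested, none of them a member, 8 rose and 1 fell in Col-0 roots, 3 rose and 5 fell in hy5 roots, and 5 rose and 1 fell in phyAB roots. In shoots 22 of these genes were tested, and 10 fell in Col-0 (23.2% of all genes fell), 9 in hy5 (22.5%) and 8 in phyAB (22.1%), while 1 rose in Col-0. PBS3, an enzyme of salicylic acid synthesis, rose to 1.48 ± 0.20 CPM from 0.170 ± 0.0232 in Col-0 roots (3.01 ± 0.59 on the log2 scale, adjusted p = 0.00045, edgeR).

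PRR7 is a repressor within the clock that follows the morning genes. The 3 Col-0 root libraries at 21 °C gave 62.9, 62.9 and 78.5 CPM for PRR7 and the 3 at 27 °C 122, 117 and 123 CPM. In hy5 the roots gave 81.2, 97.4 and 85.5 CPM and 145, 158 and 152 CPM at these temperatures. In phyAB the roots gave 73.5, 72.7 and 87.8 CPM and 136, 127 and 128 CPM. PRR7 stood at 113 to 214 CPM in shoots. Warm roots lay above cool roots without overlap in each genotype, and shoots overlapped the warm roots.

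TOC1 is the evening regulator of the clock. Counts of TOC1 came to 47.0, 53.5 and 67.2 CPM in cool Col-0 roots and to 68.4, 79.1 and 101 CPM in warm ones. Roots of hy5 stood at 35.5, 39.9 and 44.0 CPM and, when warm, at 56.5, 62.4 and 74.7 CPM. Roots of phyAB stood at 28.3, 32.0 and 36.2 CPM and, when warm, at 45.0, 48.1 and 52.3 CPM. TOC1 stood at 14.3 to 28.4 CPM in shoots. Warm and cool roots did not overlap within a genotype, but the gap was narrow in Col-0. That gap, from 67.2 to 68.4 CPM, lies between the cool library numbered 3 and the warm library numbered 1. In each root group TOC1 was lowest in the library numbered 1 and highest in that numbered 3. Of the other 13 clock genes tested, 1 rose (21.7% of all genes) and 1 fell (21.8%) in Col-0 roots. These were ELF3, from 67.7 ± 4.14 to 86.2 ± 5.81 CPM (0.27 ± 0.08, adjusted p = 0.0121, edgeR), and the morning gene LHY, from 15.0 ± 4.62 to 4.37 ± 2.24 CPM (-1.84 ± 0.38, adjusted p = 0.000649). In hy5 roots 3 rose and 1 fell (25.7% and 23.9% of all genes), and in phyAB roots 4 rose and 3 fell (19.2% and 19.2%). In Col-0 shoots 2 rose and 2 fell (22.5% and 23.2%).

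AT5G61590 encodes an AP2/ERF factor, known as a repressor of cuticular wax synthesis. Col-0 roots held AT5G61590 at 11.5, 6.96 and 15.9 CPM at 21 °C and 35.2, 41.3 and 46.1 CPM at 27 °C. The hy5 roots held 14.4, 15.7 and 13.0 CPM in the cool and 51.0, 62.4 and 43.4 CPM in the warm libraries. The phyAB values were 20.6, 29.8 and 23.4 CPM at 21 °C and 51.0, 48.8 and 40.2 CPM at 27 °C. AT5G61590 stood at 49.5 to 97.4 CPM in shoots. Cool phyAB roots lay above all cool Col-0 roots, and all shoots lay above all cool roots.

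AT4G39780 encodes another AP2/ERF factor. Cool Col-0 roots had 12.8, 10.1 and 12.4 CPM of AT4G39780, and warm ones 30.2, 34.6 and 38.5 CPM. For hy5 roots these values were 18.6, 13.9 and 14.6 CPM and 46.9, 50.5 and 42.2 CPM. For phyAB roots they were 25.0, 27.3 and 21.9 CPM and 48.6, 54.7 and 43.8 CPM. AT4G39780 stood at 7.41 to 12.1 CPM in shoots. Cool phyAB roots lay above all cool Col-0 and hy5 roots, and no warm group overlapped its cool group.

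The other factors are AT2G46680 (homeobox 7, a water stress-linked HD-Zip factor), ERF-1, BLH1, the bHLH protein AT1G10610 and TCP14. Their root L ran from 0.55 to 1.07. A lncRNA is annotated over 34.1% of BLH1 on the opposite strand. Of 17 ethylene and ERF genes tested, 4 rose and 1 fell in Col-0 roots. In Col-0 shoots 3 rose and 3 fell.

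**Figure D4:**
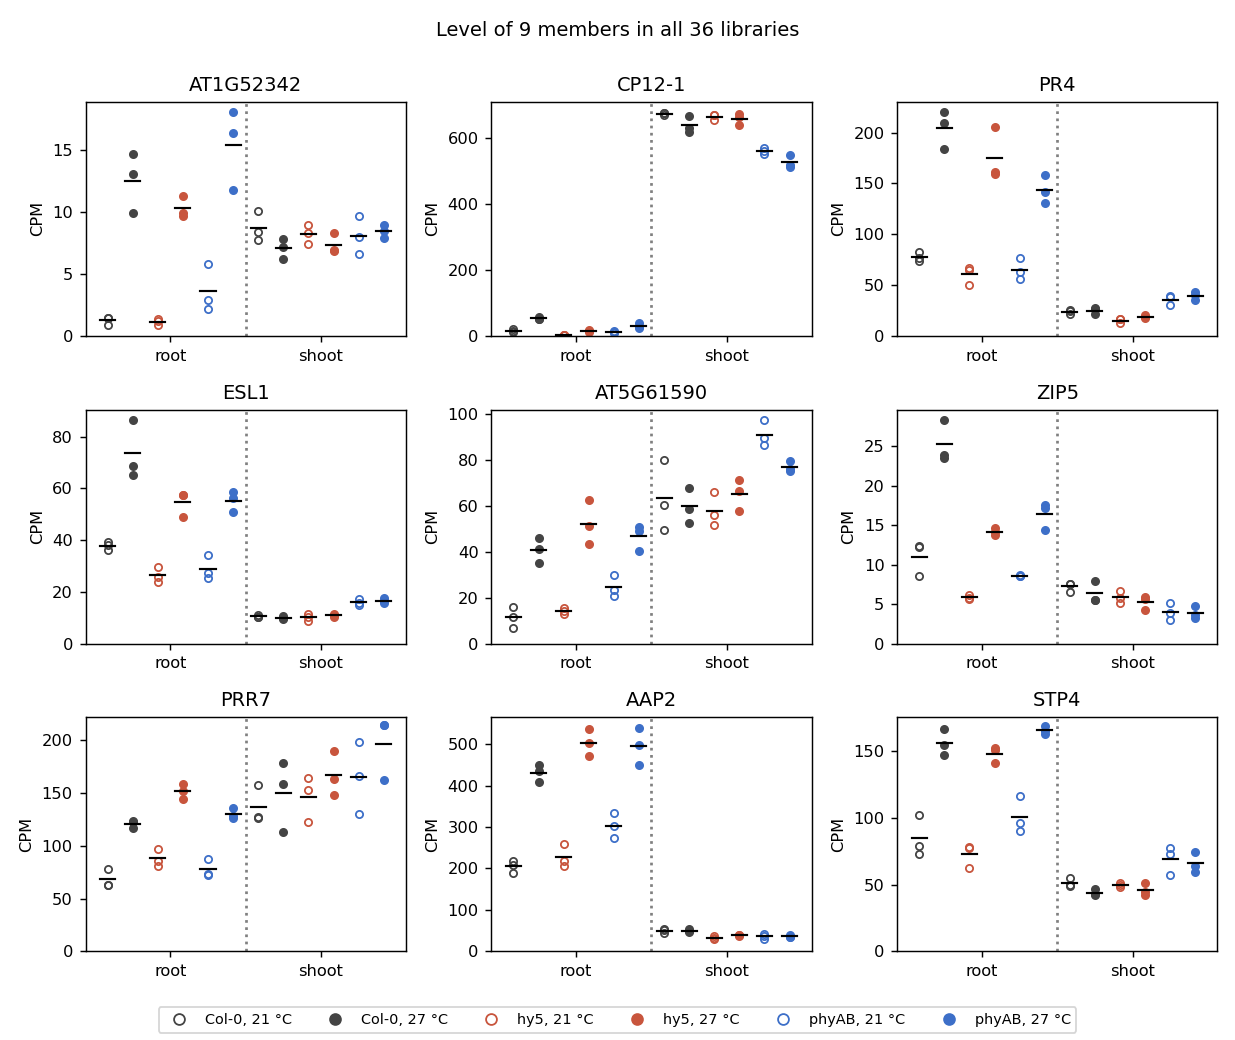
CPM of 9 members in all 36 libraries; circles are libraries (open 21 °C, filled 27 °C), bars are means of 3, colours are genotypes, and roots stand left of the dotted line. In each panel the warm root libraries lie above the cool ones of the same genotype, while in shoots the means of the temperatures are close.

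Folding and turnover genes were led by the cyclophilin AT2G21130. The 3 Col-0 root libraries at 21 °C gave 4.39, 6.00 and 5.58 CPM for AT2G21130 and the 3 at 27 °C 10.1, 12.2 and 12.6 CPM. In hy5 the roots gave 5.12, 5.97 and 5.10 CPM and 13.6, 14.3 and 18.6 CPM at these temperatures. In phyAB the roots gave 2.43, 2.78 and 2.09 CPM and 7.46, 8.52 and 9.23 CPM. AT2G21130 stood at 2.99 to 8.38 CPM in shoots. Cool phyAB roots lay below all cool roots of the other genotypes. The group also holds the cyclophilin AT5G35100, the F-box protein AT2G27310, the ubiquitin ligase PUB38, the RING protein AT4G13100, the proteasome ATPase AT1G53780, the chaperone Hsp70-2 and the CAAX protease AT3G26085. Their root L ran from 0.55 to 1.09. Of 16 heat shock genes tested, which hold none of the members, 16 rose in Col-0 roots (21.7% of all genes). In hy5 roots 15 rose (25.7%) and in phyAB roots 14 (19.2%), and the medians in these roots were 2.70, 3.05 and 2.84. In Col-0 shoots 14 rose (22.5%), in hy5 shoots 15 (23.1%) and in phyAB shoots 11 (21.3%).

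CYP94D2, a cytochrome P450, ranks highest among the enzymes. Counts of CYP94D2 came to 3.55, 3.58 and 3.49 CPM in cool Col-0 roots and to 9.23, 6.93 and 6.77 CPM in warm ones. Roots of hy5 stood at 3.08, 2.52 and 2.64 CPM and, when warm, at 5.45, 5.74 and 6.57 CPM. Roots of phyAB stood at 3.20, 4.05 and 2.30 CPM and, when warm, at 7.09, 7.80 and 5.69 CPM. CYP94D2 stood at 21.6 to 32.2 CPM in shoots, above all roots. Its L of 0.23 to 0.29 in shoots was close to the end of the band.

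TPX1 is a peroxidase that draws on thioredoxin. Col-0 roots held TPX1 at 294, 290.4 and 282 CPM at 21 °C and 469.7, 501 and 467 CPM at 27 °C. The hy5 roots held 245, 251 and 230.5 CPM in the cool and 471, 491 and 465 CPM in the warm libraries. The phyAB values were 264, 303 and 254 CPM at 21 °C and 487, 502 and 469.6 CPM at 27 °C. TPX1 stood at 95.2 to 126 CPM in shoots, below all roots. It has a close relative, TPX2, so its count is uncertain. Of 16 other glutathione transferase and peroxide genes tested, 4 rose and 4 fell in Col-0 roots. In Col-0 shoots these numbers were 2 and 11.

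The other 18 enzymes include the oleate desaturase FAD2, the aromatic amino acid enzyme DHS2, the acetate-activating enzyme AAE7, the glucan phosphorylase AT3G29320, the galactosidase AGAL1, the cellulose synthase-like CSLB03, 2 nudix hydrolases (NUDX27 and NUDT11), and P450 enzymes. Root L of all 20 enzymes ran from 0.55 to 1.09. The cytidine deaminase CDA1 is covered by a lncRNA on the opposite strand over 100% of its length, and AT4G31530 by EXO70G1 over 58.2%. AT5G27410 shares 32.8% of its length with AT5G27400 on the same strand. Of the 80 members, 29 overlap another annotated gene and 5 do so over at least 20% of their length. The sources used here do not state the counting's strand setting, and reads of an overlapping gene may enter these values.

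AT1G52342, of unknown function, has the highest rank. Cool Col-0 roots had 1.48, 0.875 and 1.46 CPM of AT1G52342, and warm ones 9.91, 14.7 and 13.1 CPM. For hy5 roots these values were 1.23, 1.36 and 0.861 CPM and 11.3, 9.90 and 9.71 CPM. For phyAB roots they were 2.90, 5.79 and 2.16 CPM and 18.1, 16.4 and 11.8 CPM. AT1G52342 stood at 6.21 to 10.1 CPM in shoots. Cool roots lay below all shoots, and warm roots overlapped the top of the shoot range or lay above it. The other 11 of the remaining group are AT5G06280, AT2G31560, AT3G63210, AT1G10660, AT1G71710, AT1G65845, AT5G41690, AT5G25630, AT3G26630, AT1G18470 and AT3G61420, with root L of 0.55 to 1.43. A pseudogene is annotated over 57.6% of AT5G06280 on the opposite strand.

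Where the members are expressed was asked by comparing Col-0 roots with Col-0 shoots at 21 °C. The choice set a minimum in each organ but no difference between them. Of 80 members, 51 were lower in roots (38.1% of 21598 genes tested) and 21 higher (40.5%). Their median log2 fold change was -0.93, against 0.04 over all genes tested. The 10 chloroplast members were among the lower, with a median of -6.69. Without them 41 of 70 were lower and 21 higher. The largest root excess was that of AT3G14280, annotated as an aminotransferase, at 50.6 ± 9.62 CPM in roots and 2.41 ± 0.419 CPM in shoots (3.64 ± 0.20, adjusted p = 6.51e-17). Next were AT2G27310 (2.48 ± 0.17, adjusted p = 1.2e-14), AT1G03220 (1.90 ± 0.15, adjusted p = 2.75e-13), RAN1 (1.75 ± 0.07, adjusted p = 3.46e-21) and UMAMIT30 (1.55 ± 0.09, adjusted p = 6.17e-17). On the lower side CAB1 led with -9.60 ± 0.67, adjusted p = 2.5e-14, followed by RCA (-8.94 ± 0.35, adjusted p = 9.87e-21), PSAD-1 (-7.65 ± 0.27, adjusted p = 3.23e-22), CRD1 (-7.07 ± 0.18, adjusted p = 8.59e-26) and APE2 (-6.78 ± 0.20, adjusted p = 1.9e-24). Values in brackets are log2 fold changes ± SE, with p-values from edgeR's quasi-likelihood test adjusted by Benjamini-Hochberg over all genes.

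The mutants were compared with Col-0 at each temperature, which the choice did not use, although the same libraries enter both. In hy5 roots at 21 °C, 33 of 80 members were lower (18.4% of 20355 genes) and 19 higher (16.7%). Photosynthesis members made the largest differences: 10 of 10 were lower, with a median log2 fold change of -2.76. PSAD-1 stood at 0.475 ± 0.0919 CPM in hy5 and 21.4 ± 2.43 CPM in Col-0 roots (SD, n = 3), a log2 fold change of -5.42 ± 0.45, adjusted p = 2.33e-08 by edgeR. CAB1 (-3.85 ± 0.84, adjusted p = 0.00134), CRD1 (-3.76 ± 0.22, adjusted p = 1.76e-10) and CP12-1 (-2.81 ± 0.26, adjusted p = 8.07e-08) were also among the 5 largest. The remaining one of these 5 was CSLB03, an enzyme of the cellulose synthase-like family, at 0.505 ± 0.220 against 5.58 ± 0.832 CPM (-3.39 ± 0.27, adjusted p = 1.51e-08). The 30 photosynthesis markers stood at 84.7 to 103 CPM in hy5 and 518 to 642 CPM in Col-0 roots at this temperature. Without the 10 chloroplast members 23 of 70 were lower (32.9%) and 19 higher (27.1%).

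The higher members of hy5 roots at 21 °C were led by AT1G65845, at 26.0 ± 3.62 against 10.6 ± 2.07 CPM (1.33 ± 0.15, adjusted p = 1.26e-06, edgeR). AGAL1, an enzyme that removes galactose from sugar chains, stood at 9.40 ± 0.562 against 4.63 ± 0.946 CPM (1.05 ± 0.15, adjusted p = 1.63e-05). AT1G71710 (1.03 ± 0.07, adjusted p = 2.11e-09), AT2G44290 (0.99 ± 0.27, adjusted p = 0.00665) and AT2G46680 (0.87 ± 0.14, adjusted p = 6.58e-05) followed. The sugar carriers split, with SFP1 higher (0.69 ± 0.11, adjusted p = 4.6e-05) and ESL1 lower (-0.49 ± 0.12, adjusted p = 0.0035). STP4 (-0.20 ± 0.11, adjusted p = 0.191) and STP7 (-0.19 ± 0.10, adjusted p = 0.172) did not pass. The clock members split too: PRR7 was higher (0.40 ± 0.09, adjusted p = 0.00169) and TOC1 lower (-0.46 ± 0.15, adjusted p = 0.0192).

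At 27 °C, 24 members were lower in hy5 roots (17.4% of genes) and 20 higher (16.0%). The 10 chloroplast members were again all lower, with a median of -1.93, while the 30 markers stood at 173 to 277 CPM against 1130 to 1312 CPM. PSAD-1 (-3.93 ± 0.32, adjusted p = 2.13e-08), CRD1 (-3.21 ± 0.19, adjusted p = 3.22e-10), CSLB03 (-2.82 ± 0.22, adjusted p = 1.04e-08), CAB1 (-2.79 ± 0.68, adjusted p = 0.00375) and APE2 (-2.57 ± 0.22, adjusted p = 4.42e-08) were the largest by edgeR. On the higher side were AT1G71710 (1.15 ± 0.07, adjusted p = 2.87e-10), AT2G46680 (1.09 ± 0.13, adjusted p = 1.96e-06), AGAL1 (1.03 ± 0.13, adjusted p = 5.53e-06), AT3G14280 (0.82 ± 0.12, adjusted p = 4.16e-05) and UMAMIT30 (0.75 ± 0.09, adjusted p = 1.71e-06). At both temperatures 16 members were higher (20% of the 80, against 11% of 20355 genes) and 23 lower (28.75%, against 13.2%) in hy5 roots. Without the chloroplast members 14 of 70 were lower at 27 °C (20%, against 17.4% of all genes) and 20 higher (28.6%, against 16.0%). SFP1 (0.20 ± 0.10, adjusted p = 0.154) and TOC1 (-0.33 ± 0.14, adjusted p = 0.0843) did not pass at 27 °C by edgeR. ESL1 was lower there too (-0.39 ± 0.11, adjusted p = 0.0110), and PRR7 higher (0.36 ± 0.09, adjusted p = 0.00322).

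In phyAB roots at 21 °C, 24 members were higher (17.2% of genes) and 24 lower (17.9%). The phyAB and hy5 comparisons share the Col-0 libraries, so their values stand side by side and are not counted as separate evidence. AT1G52342 led the higher ones, at 3.62 ± 1.92 against 1.27 ± 0.343 CPM (1.51 ± 0.34, adjusted p = 0.00174, edgeR). AT1G65845 (1.37 ± 0.15, adjusted p = 1.15e-06), AT5G61590 (1.08 ± 0.22, adjusted p = 0.000651), AT4G39780 (1.04 ± 0.14, adjusted p = 8.09e-06) and AGAL1 (0.90 ± 0.15, adjusted p = 0.000115) followed. Of the chloroplast members 7 of 10 were lower, with a median of -1.01, while the 30 markers stood at 205 to 333 CPM against 518 to 642 CPM. Among the other 70 members 17 were lower (24.3%) and 24 higher (34.3%). PSAD-1 stood at 4.04 ± 0.864 against 21.4 ± 2.43 CPM (-2.44 ± 0.32, adjusted p = 8.92e-06). CRD1 (-2.05 ± 0.19, adjusted p = 1.2e-07), ATPC1 (-1.52 ± 0.15, adjusted p = 2.38e-07) and CSLB03 (-1.36 ± 0.22, adjusted p = 7.06e-05) were also lower. CAB1 passed with -2.36 ± 0.72, adjusted p = 0.0153 and did not without phyAB replicate 1 (adjusted p = 0.0547). TOC1 was at 32.2 ± 3.93 against 55.9 ± 10.3 CPM (-0.84 ± 0.15, adjusted p = 0.000241), and PRR7 did not pass, at 78.0 ± 8.51 against 68.1 ± 9.03 CPM. Without the library numbered 3, whose source name says shoot, 24 were higher and 17 lower.

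At 27 °C, 20 members were higher in phyAB roots (14.6% of genes) and 25 lower (16.6%). AT2G46680 (0.81 ± 0.13, adjusted p = 7.42e-05), AT2G39210 (0.77 ± 0.10, adjusted p = 5.12e-06), AGAL1 (0.76 ± 0.13, adjusted p = 0.0002), AT1G65845 (0.54 ± 0.14, adjusted p = 0.00469) and AT3G61420 (0.53 ± 0.08, adjusted p = 4.66e-05) led by edgeR. Lower were PSAD-1 (-1.99 ± 0.27, adjusted p = 1.3e-05), CRD1 (-1.97 ± 0.17, adjusted p = 8.02e-08), CSLB03 (-1.17 ± 0.18, adjusted p = 7.36e-05), ATPC1 (-1.16 ± 0.14, adjusted p = 2.34e-06) and the TPR protein AT5G25630 (-1.10 ± 0.12, adjusted p = 1.65e-06). Of the chloroplast members 8 of 10 were lower, with markers at 348 to 699 CPM against 1130 to 1312 CPM. Among the other 70 members 17 were lower (24.3%) and 20 higher (28.6%). At both temperatures 18 members were higher (22.5% of the 80, against 10.6% of 20355 genes) and 21 lower (26.25%, against 12.7%) in phyAB roots. Without the library numbered 3, 16 were higher and 22 lower.

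**Figure D5:**
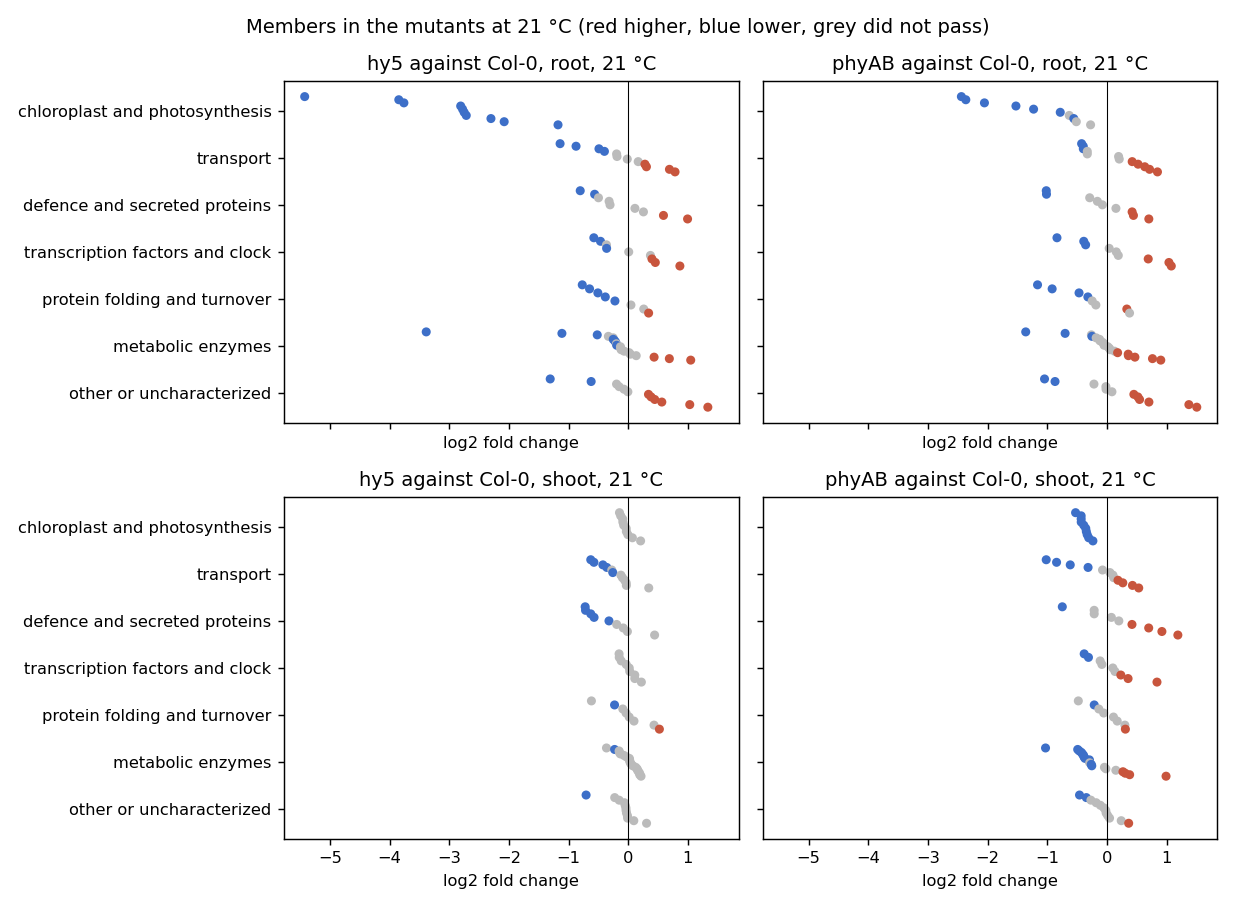
Log2 fold change of each member in hy5 or phyAB against Col-0 at 21 °C, by group of function; red points were higher and blue points lower at an adjusted p under 0.05 (edgeR), grey points did not pass. In hy5 roots the 10 chloroplast members are all lower, with a median of -2.76, and in hy5 shoots none of them passes.

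At 21 °C 13 members were lower in hy5 shoots (8.94% of 20100 genes) and 1 higher (8.99%). The lower ones include 5 of the 9 defence genes and 5 of the 12 transport genes. PRXCB stood at 60.8 ± 7.05 against 101 ± 11.4 CPM (-0.72 ± 0.14, adjusted p = 0.00149, edgeR). GAMMA-VPE (-0.72 ± 0.11, adjusted p = 0.000222), AT3G63210 (-0.71 ± 0.10, adjusted p = 0.00022), KCO5 (-0.63 ± 0.11, adjusted p = 0.00103) and PR4 (-0.63 ± 0.13, adjusted p = 0.00221) followed, so that 3 of the 5 largest are defence genes. The higher one was Hsp70-2 (0.52 ± 0.10, adjusted p = 0.00133). Of the 10 chloroplast members 0 passed at 21 °C by edgeR, with 1 higher and 2 lower at an unadjusted p under 0.05, and DESeq2 called 1, higher. In place of 1 higher member there were 3 with DESeq2 or its size factors, 2 when only the groups compared were fitted, and 2 without hy5 or Col-0 replicate 3. The 21 root markers summed to 1724 to 2064 CPM in these hy5 shoots and to 2977 to 3112 CPM in Col-0 shoots, and their part in the members' values was not tested.

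At 27 °C 12 members were lower in hy5 shoots (6.06%) and 3 higher (6.18%). With the replicate number as a block, which pairs these samples, 15 were lower and 5 higher. PRXCB (-0.96 ± 0.14, adjusted p = 0.000193), GAMMA-VPE (-0.79 ± 0.11, adjusted p = 9.97e-05), AT3G63210 (-0.52 ± 0.10, adjusted p = 0.00293), AT5G22860 (-0.52 ± 0.12, adjusted p = 0.0103) and UMAMIT30 (-0.46 ± 0.08, adjusted p = 0.00166) were the largest of the lower by edgeR. FAD2 was higher (0.31 ± 0.06, adjusted p = 0.00175). AT2G39210 (0.55 ± 0.17, adjusted p = 0.0464) and Hsp70-2 (0.34 ± 0.10, adjusted p = 0.0312) were also higher, but AT2G39210 kept its call on leaving out a library only without hy5 replicate 3, with adjusted p up to 0.288 otherwise. Hsp70-2 kept its call only without hy5 replicate 2, with adjusted p up to 0.113. AT5G22860 lost its call without hy5 replicate 1 (adjusted p = 0.0670). Without hy5 replicate 1, Col-0 replicate 1 or Col-0 replicate 2, 1 member was higher. Without hy5 replicate 2, 6 were lower, and without Col-0 replicate 2 or 3, 7. Of the chloroplast members 0 passed by edgeR, with 1 higher and 3 lower at an unadjusted p under 0.05, and DESeq2 called 1, lower. Root markers summed to 1822 to 1948 CPM in hy5 and 2804 to 2854 CPM in Col-0 shoots at 27 °C.

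In phyAB shoots at 21 °C, 32 members were lower (20.2% of genes) and 17 higher (18%). Without phyAB replicate 2, 11 were higher, and without Col-0 replicate 2, 10. All 10 chloroplast members were lower by a median of -0.37, while the 30 photosynthesis markers summed to 98806 to 102023 CPM in phyAB and 110944 to 123239 CPM in Col-0 shoots. Root markers summed to 3564 to 3774 CPM against 2977 to 3112 CPM. With the 10 chloroplast members left out, 22 of 70 were lower (31.4%) and 17 higher (24.3%). The largest were CSLB03, at 13.2 ± 1.29 against 24.0 ± 7.06 CPM (-1.03 ± 0.16, adjusted p = 7.46e-05, edgeR), ZIP5 (-1.02 ± 0.19, adjusted p = 0.00036), AT1G79520 (-0.84 ± 0.15, adjusted p = 0.00019), AT5G17650 (-0.75 ± 0.11, adjusted p = 3.94e-05) and AAP2 (-0.61 ± 0.10, adjusted p = 9.81e-05). The carboxypeptidase AT5G22860 was higher, at 16.4 ± 0.924 against 6.40 ± 0.980 CPM (1.19 ± 0.11, adjusted p = 1.88e-07). AT3G14280 (0.99 ± 0.25, adjusted p = 0.00402), AT1G03220 (0.92 ± 0.13, adjusted p = 2.03e-05), ERF-1 (0.84 ± 0.13, adjusted p = 8.92e-05) and AT2G44290 (0.70 ± 0.14, adjusted p = 0.000866) were higher too. The 10 seed genes summed to 324 to 2410 CPM in these phyAB shoots, and the part of these lists in the members' values was not tested.

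At 27 °C 25 members were lower in phyAB shoots (23.7%) and 17 higher (18.8%). With the 10 chloroplast members left out, 15 of 70 were lower (21.4%, against 23.7% of all genes) and 17 higher (24.3%). ERF-1, an activator of ethylene-linked defence genes, stood at 16.0 ± 1.68 against 5.76 ± 1.04 CPM (1.32 ± 0.14, adjusted p = 7.47e-07, edgeR). AT5G22860 (1.26 ± 0.11, adjusted p = 6.68e-08), AT2G44290 (0.72 ± 0.14, adjusted p = 0.000649) and NUDT11 (0.62 ± 0.13, adjusted p = 0.000706) were higher. AT3G14280 passed (0.83 ± 0.25, adjusted p = 0.0127) but not without phyAB replicate 1 (adjusted p = 0.0725), phyAB replicate 3 (adjusted p = 0.0514) or Col-0 replicate 1 (adjusted p = 0.0586). CSLB03 (-1.50 ± 0.16, adjusted p = 1.15e-06), ZIP5 (-0.88 ± 0.19, adjusted p = 0.00134), NUDX27 (-0.64 ± 0.06, adjusted p = 9.27e-08), AAP2 (-0.63 ± 0.10, adjusted p = 6.19e-05) and AT5G17650 (-0.60 ± 0.11, adjusted p = 0.000216) were lower. All 10 chloroplast members were lower by a median of -0.45, with photosynthesis markers at 112208 to 122940 CPM against 135927 to 136717 CPM. The 10 seed genes summed to 212 to 1229 CPM here.

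Whether a mutant's effect at 21 °C differed between root and shoot was tested in a model of all 36 libraries, a comparison added after the data were seen. For hy5 the effect was lower in roots for 27 members (12.6% of 21598 genes) and higher for 15 (7.11%). For phyAB it was lower for 15 (14.5%) and higher for 15 (7.54%). Among the 14337 genes over the CPM minimum, 15.2% were lower and 8.21% higher for hy5, and 16.1% and 9.33% for phyAB. The 15 members lower for phyAB are 18.75% of the 80, close to the 16.1%. The effect passed in opposite directions in the organs, with their difference, for 2 of the 80 members in hy5 (1.62% of 18883 genes) and for 7 in phyAB (2.89%). The hy5 count is close to the share over all genes.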

How the data were processed

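The deposited values are counts, whole numbers of reads per gene for 36 libraries, used here without change. Per the labels' protocols, mRNA libraries were stranded, with single reads of 50 bases. FastQC, TopHat2, HTSeq and edgeR were used with the build TAIR10, per the submitters' processing notes, with versions not given in the sources used here. The 5 summary categories of each file, such as reads aligned at more than 1 place (5.00% to 10.4% in roots, 8.29% to 34.6% in shoots) or outside genes (1.17% to 1.81% and 0.697% to 1.51%), entered neither library sizes nor tests.

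CPM used plain totals of gene counts. Tests were edgeR 4.0.16 quasi-likelihood tests in R 4.3.3 with TMM factors, the default filter on low counts, 6 groups per organ (20355 genes in roots, 20100 in shoots) or 12 groups in a joint model (21598 genes), and Benjamini-Hochberg adjustment over all genes with a threshold of 0.05. DESeq2 1.42.0, other factors, no filter, a replicate block, only the groups compared, and leaving out each library were alternatives. The tests were checked on simulated data. Replicate pairs differed by 3.19 to 14.4 in chi-square per degree of freedom, above counting noise. Samples of the same number deviated together, with 3 of 3 correlations above 0.1, in hy5 and phyAB against Col-0 in shoots at 27 °C. The same held in the warmth comparison of phyAB roots. No other comparison had 3 of 3 above 0.1, which does not exclude a weaker shared deviation. In the warmth comparison of phyAB shoots the correlations were 0.258, 0.0786 and 0.297.

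Members, lists and groups of function were chosen with earlier results of these data known. Values in every root library are given for the 12 highest ranks, for members in a gene list, and for AAP2, chosen after its values were seen. In each comparison between genotypes or organs the 5 largest called members per direction are named, and others where their group is described. Gene names and sequences came from the RefSeq annotation of TAIR10.1.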

Additional observations from a re-analysis of the deposited data

Results flagged for a closer look

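The mutant's effect at 21 °C passed in opposite directions in root and shoot, and the difference between the organs also passed, for 2 of the 80 members in hy5, against 1.62% of 18883 genes, and for 7 in phyAB, against 2.89% (edgeR's quasi-likelihood test in the joint model, adjusted p over 21598 genes). The hy5 count is close to the share over all genes. Differences are log2, root effect minus shoot effect, ± SE. In hy5, UMAMIT30 was higher in roots, at 109 ± 10.8 against 64.7 ± 3.43 CPM, and lower in shoots, at 10.8 ± 1.02 against 13.0 ± 1.06 CPM, a difference of 1.003 ± 0.12 (adjusted p = 2.07e-07). The chaperone Hsp70-2 was lower in hy5 roots and higher in hy5 shoots, with -0.79 ± 0.12 (adjusted p = 1.21e-05).

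In phyAB, higher in roots and lower in shoots were AT4G39780 (1.40 ± 0.20, adjusted p = 3.54e-06), AGAL1 (1.37 ± 0.20, adjusted p = 3.62e-06), AAP2 (1.11 ± 0.14, adjusted p = 7.19e-07) and AT2G46680 (0.98 ± 0.19, adjusted p = 0.000255). AAP2 stood at 303 ± 29.3 against 206 ± 14.9 CPM in roots and at 35.8 ± 5.22 against 48.9 ± 4.98 CPM in shoots. Lower in roots and higher in shoots were AT5G22860 (-2.22 ± 0.30, adjusted p = 1.29e-06), ESL1 (-0.88 ± 0.17, adjusted p = 0.000191) and TCP14 (-0.62 ± 0.15, adjusted p = 0.00315). The phyAB shoots carry seed transcripts, and their part in these differences was not tested.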

How the results depend on the processing

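No called value changed its direction under the alternatives run. The differences of a mutant's effect between root and shoot were fitted only in the main model, so no alternative was run for them. The list of members depends on the rule's settings: of the 80, 37 were also taken with a shoot band of 0.2, 55 with a minimum of 10 CPM, 59 with 1 CPM, 72 to 73 with another pseudocount and 75 with TMM factors. Leaving out a replicate number, or phyAB root replicate 3, kept 56 to 73. Members higher in hy5 shoots at 21 °C, 1 as reported, came to 3 with DESeq2's size factors, 3 with DESeq2, 2 when only the groups compared were fitted, 5 with the replicate block, and 1 to 2 without 1 library. In hy5 shoots at 27 °C, the replicate block, where the numbers pair the samples, gave 5 higher in place of 3, and leaving out 1 library gave 1 to 2 higher and 6 to 10 lower. In phyAB shoots at 21 °C leaving out 1 library gave 10 to 16 higher. The cause was not tested. The block moved no other count by over 1.5 times. Calls of named members were lost in 15 instances on leaving out 1 library and in 1 when only the groups compared were fitted. Several of these instances concern the same call. The calls lost were CAB1 in phyAB roots at 21 °C, and AT2G39210, Hsp70-2 and AT5G22860 in hy5 shoots at 27 °C. AT3G14280 in phyAB shoots at 27 °C was the remaining one, and all other calls of named members run this way held. Below about 1 CPM, as for PSAD-1 in hy5 roots, counting noise is large.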
